A study of Mus musculus with 6 samples.

Results

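The genes followed here, 9 in number, belong to 2 lytic forms of cell death, necroptosis and pyroptosis, and to the inflammasome that starts pyroptosis, in mouse kidney: Ripk1, Ripk3, Mlkl, Casp8, Nlrp3, Pycard, Casp1, Gsdmd and Ninj1. They were taken by gene symbol, not by any measured value, and were 9 of the 21957 genes with values in all libraries. RNA-seq was run on renal cortex total RNA of mice of the inbred C57BL/6 strain, in a series whose title concerns oxidised RNA and the ribonuclease ISG20 in acute kidney injury. The IR24h group holds 3 libraries from mice whose renal pedicles, the stalks of vessels to each kidney, were both clamped for 30 min and then reperfused for 24 h. The sham group holds 3 libraries of the same strain and tissue, labelled sham, and the labels describe no clamping for it apart from the shared protocol text. The titles of the libraries in both groups begin with WT, read here as wild type. Age, sex and whether each library is 1 mouse or a pool are not stated in the sources used here. P-values thus measure the spread between these libraries, which may be technical.

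In necroptosis, the kinase RIPK1, recruited to death receptors, pairs with the kinase RIPK3, which phosphorylates MLKL, and MLKL then permeabilises the plasma membrane. The protease caspase-8 cleaves RIPK1 and RIPK3 and so restrains necroptosis, besides starting apoptosis. In pyroptosis, a sensor such as NLRP3 nucleates the adaptor ASC, the product of Pycard, which activates caspase-1. Caspase-1 matures interleukin-1 beta and interleukin-18 and cleaves gasdermin D, the pore-forming protein, and NINJ1 carries out the final rupture of the membrane in lytic death. All of these steps are controlled on proteins by phosphorylation, cleavage and assembly, and RNA counts measure none of them. In the kidney, both routes are studied as ways in which tubular cells die after ischemia and release inflammatory contents.

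At 24 h of reperfusion, 4 of the 9 genes had risen by edgeR's quasi-likelihood test at a Benjamini-Hochberg adjusted p under 0.05, against 16.3% of all 13609 genes tested (8.65% higher and 7.62% lower). They were Mlkl and Casp8 of the necroptosis branch and Nlrp3 and Pycard of the inflammasome. Nlrp3 passed the filter on low counts through the IR24h libraries alone, so it could be tested only by being high there. Its call is therefore not read against that share. Nlrp3 also stands in the DESeq2, unadjusted-p and non-overlap counts below and in the median. No gene of the 9 passed the test in the lower direction, with 6 of the 9 at an unadjusted p under 0.05 (Ninj1 alone of them lower), against 34.1% of all genes. DESeq2 called 6 of the 9, among them Ripk3 higher and Ninj1 lower, against 27.8% of all genes (15.3% higher and 12.5% lower). With limma-voom 3 were called, Mlkl and Casp8 higher and Ninj1 lower, against 16.2% (7.39% higher and 8.8% lower). The median log2 fold change was 1.30 over the 9 genes and 0.05 over all genes tested. The 3 IR24h libraries lay wholly outside the range of the sham libraries for 6 of the 9 genes, against 41.5% of all genes. Ripk3, Mlkl, Casp8, Nlrp3 and Pycard were those entirely higher, a pattern of 19.9% of all genes, and Ninj1 was entirely lower, a pattern of 21.7%.

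The listed counts per library summed to between 12877237 and 15998975 in IR24h and between 14339985 and 17061844 in sham. Mitochondrial genes held 68.9%, 26.2% and 49.2% of the counts in IR24h 1, 2 and 3, and 13.1 to 14.2% in the sham libraries. IR24h 2 stood apart from the rest of its group: its log2 CPM values (CPM being counts divided by TMM-scaled library sizes) correlated across genes at 0.81 and 0.83 with IR24h 1 and 3, and at 0.83 to 0.84 with the sham libraries. IR24h 1 and 3 correlated at 0.90 with each other and at 0.72 to 0.78 with sham, and the sham libraries at 0.97 to 0.98 among themselves. Without IR24h 2, 48.3% of the genes tested were called, and with it as the sole IR24h library 38.1%. The sham and the IR24h values had also been made differently: the length of a gene that its count and FPKM imply differed between the groups for 1681 of 12806 genes (13.1%), so that processing and injury cannot be told apart. Of the 9 genes, the implied length differed for Casp1 and Gsdmd, and was equal in both groups for the other 7.

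The DNA just before a RefSeq start of each of the 4 called genes is shown, so that these sequences can be set side by side. RefSeq (GRCm38.p6) held promoter entries for 8 of the 9 genes, all but Gsdmd, with 10 start sites in all. Each line gives the 250 bases before the start, 5′ to 3′ on the strand of the gene, for Mlkl at chr8:111338206-111338455 (minus strand), Casp8 at chr1:58802252-58802501 (plus), the upstream one of the Nlrp3 starts at chr11:59541319-59541568 (plus) and Pycard at chr7:127993868-127994117 (minus). The Casp8 window lies inside the gene as annotated in GENCODE M21, which begins at 58795374, and the DNA before that position was not searched. The Pycard window overlaps an exon of Gm45205. Capitals mark a match to 1 of 6 motifs.
Mlkl: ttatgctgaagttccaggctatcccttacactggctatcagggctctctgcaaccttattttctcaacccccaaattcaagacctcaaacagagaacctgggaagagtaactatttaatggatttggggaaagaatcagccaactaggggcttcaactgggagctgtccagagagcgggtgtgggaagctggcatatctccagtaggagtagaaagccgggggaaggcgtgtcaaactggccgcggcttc
Casp8: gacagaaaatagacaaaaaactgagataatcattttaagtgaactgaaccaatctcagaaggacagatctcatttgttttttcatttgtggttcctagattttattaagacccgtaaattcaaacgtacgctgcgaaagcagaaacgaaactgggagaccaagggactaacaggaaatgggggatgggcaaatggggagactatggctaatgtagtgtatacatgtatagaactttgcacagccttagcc
Nlrp3: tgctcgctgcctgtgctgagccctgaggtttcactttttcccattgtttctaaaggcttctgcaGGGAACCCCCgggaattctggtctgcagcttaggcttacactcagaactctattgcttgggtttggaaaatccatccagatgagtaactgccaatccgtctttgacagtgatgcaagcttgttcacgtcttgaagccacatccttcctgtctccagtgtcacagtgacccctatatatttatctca
Pycard: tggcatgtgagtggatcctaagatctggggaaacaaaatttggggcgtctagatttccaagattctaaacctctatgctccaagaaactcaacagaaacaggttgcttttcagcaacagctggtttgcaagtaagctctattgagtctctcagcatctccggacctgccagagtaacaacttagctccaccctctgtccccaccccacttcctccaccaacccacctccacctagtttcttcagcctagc

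The motifs were searched on both strands: the NF-kappaB consensus, the interferon-stimulated response element (GAAA repeated after any 2 bases), the STAT element TTCNNNGAA, the AP-1 site TGANTCA, the GC box GGGCGG and the TATA box TATAAA. Among the 4 windows printed, the capitals stand once, in Nlrp3, for an NF-kappaB match that overlaps no other match, at 186 to 177 bases before the start. A match to that motif was held by 3.90% of the 32851 promoters of the same length. The window of the downstream Nlrp3 start, not printed, held no match to any of the motifs. In the printed windows the GC share was 50.8% in Mlkl, 39.6% in Casp8, 48.0% in Nlrp3 and 48.8% in Pycard. The Ninj1 window had 76.0% GC and held 5 GC boxes, a motif found in 32.74% of all promoters. GC boxes also occurred in both Ripk1 windows and in that of Ripk3, and the second Ripk1 window held 2 STAT elements, found in 7.02% of all promoters. The interferon element was found in 2.98%, AP-1 in 6.75% and the TATA box in 12.37% of all promoters, and in no window of the 8 genes. These matches describe letters and do not show binding.

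Mlkl, the executioner of necroptosis (chromosome 8, 111311797 to 111338177, minus strand, GRCm38), had 6.11, 9.71 and 5.68 CPM in IR24h 1, 2 and 3, against 2.17, 1.01 and 0.647 CPM in sham 1, 2 and 3. Every IR24h library stood above every sham library, and IR24h 2, which was low for most of the other genes, was the highest. They rest on 43, 190 and 65 counts in IR24h and 38, 21 and 12 counts in sham. Mlkl averaged 7.17 ± 2.21 CPM in IR24h and 1.28 ± 0.795 CPM in sham (SD, n = 3 each), which made a log2 fold change of 2.50 ± 0.52 (± SE throughout; adjusted p = 0.0200, edgeR), 5.64-fold. The exact permutation test, 2-sided, gave p = 0.1, the smallest that 3 against 3 allow. Leaving out IR24h 2 gave 2.20 (adjusted p = 0.0119), and that library alone gave 2.95 (adjusted p = 0.00727). The call was lost without sham 2 (adjusted p = 0.103) and without sham 3 (adjusted p = 0.0815), settings in which 3.31% and 3.51% of all genes were called. In tissue RNA, more cells of a type and more RNA per cell cannot be told apart.

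Casp8, the protease that holds necroptosis in check (chromosome 1, 58795374 to 58847503, plus strand), had 56.7, 76.9 and 88.8 CPM in IR24h 1, 2 and 3, against 32.0, 27.0 and 26.4 CPM in sham 1, 2 and 3. On this scale the groups did not overlap, and all 3 IR24h libraries, IR24h 2 included, lay above sham. In the authors' FPKM, which divides by totals that include the mitochondrial counts, they did overlap, with 8.34, 25.3 and 20.6 in IR24h and 9.74, 8.17 and 7.52 in sham, IR24h 1 being below sham 1. It averaged 74.1 ± 16.2 CPM in IR24h and 28.4 ± 3.08 CPM in sham, a log2 fold change of 1.38 ± 0.26 (adjusted p = 0.0153, edgeR; exact permutation p = 0.1), or 2.61-fold. The change was 1.35 without IR24h 2 (adjusted p = 0.00433) and 1.45 with IR24h 2 alone (adjusted p = 0.00210). With sham 1, 2 or 3 dropped, the adjusted p was 0.0750, 0.0967 or 0.0868 (without sham 1, 3.73% of all genes were called). Of the 50-base stretches of its GENCODE M21 transcripts, 4.37% also occur in Gm20257, which is not among the genes with values. How such reads were counted was not tested.

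Ripk3, the kinase that activates MLKL (chromosome 14, 55784995 to 55788865, minus strand), was a low gene, with 17, 33 and 37 counts in IR24h and 15, 7 and 22 counts in sham. These made 2.41, 1.69 and 3.23 CPM in IR24h 1, 2 and 3, against 0.856, 0.337 and 1.19 CPM in sham 1, 2 and 3. All IR24h libraries were above all sham libraries, the nearest pair being IR24h 2 and sham 3. The log2 fold change of 1.61 ± 0.56 did not pass the test (adjusted p = 0.0882, edgeR; exact permutation p = 0.1). It passed in 2 alternatives, without IR24h 2 (1.84, adjusted p = 0.0313) and with DESeq2 (1.63, adjusted p = 0.0367).

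Ripk1, the kinase upstream of Ripk3 (chromosome 13, 34002363 to 34037147, plus strand), had 30.5, 37.6 and 9.18 CPM in IR24h 1, 2 and 3, against 26.6, 24.7 and 21.7 CPM in sham 1, 2 and 3. IR24h 3 was the lowest of the 6 libraries and IR24h 2 the highest, so that the IR24h group enclosed the sham group. The log2 fold change was 0.08 ± 0.48 (adjusted p = 0.917, edgeR; exact permutation p = 1), and its sign turned without IR24h 1 (-0.05) and without IR24h 2 (-0.32, adjusted p = 0.598). IR24h 2 alone against sham gave 0.64 (adjusted p = 0.0337). Its exons overlap those of Gm17084 on the same strand over 6.12% of their bases and those of Serpinb6a on the other strand over 2.89%. Serpinb6a itself averaged 37.7 ± 8.03 CPM in IR24h and 14.0 ± 0.829 CPM in sham (log2 fold change 1.43, adjusted p = 0.0131, edgeR). Whether the libraries kept the strand is not stated in the sources used here.

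**Figure D1:**
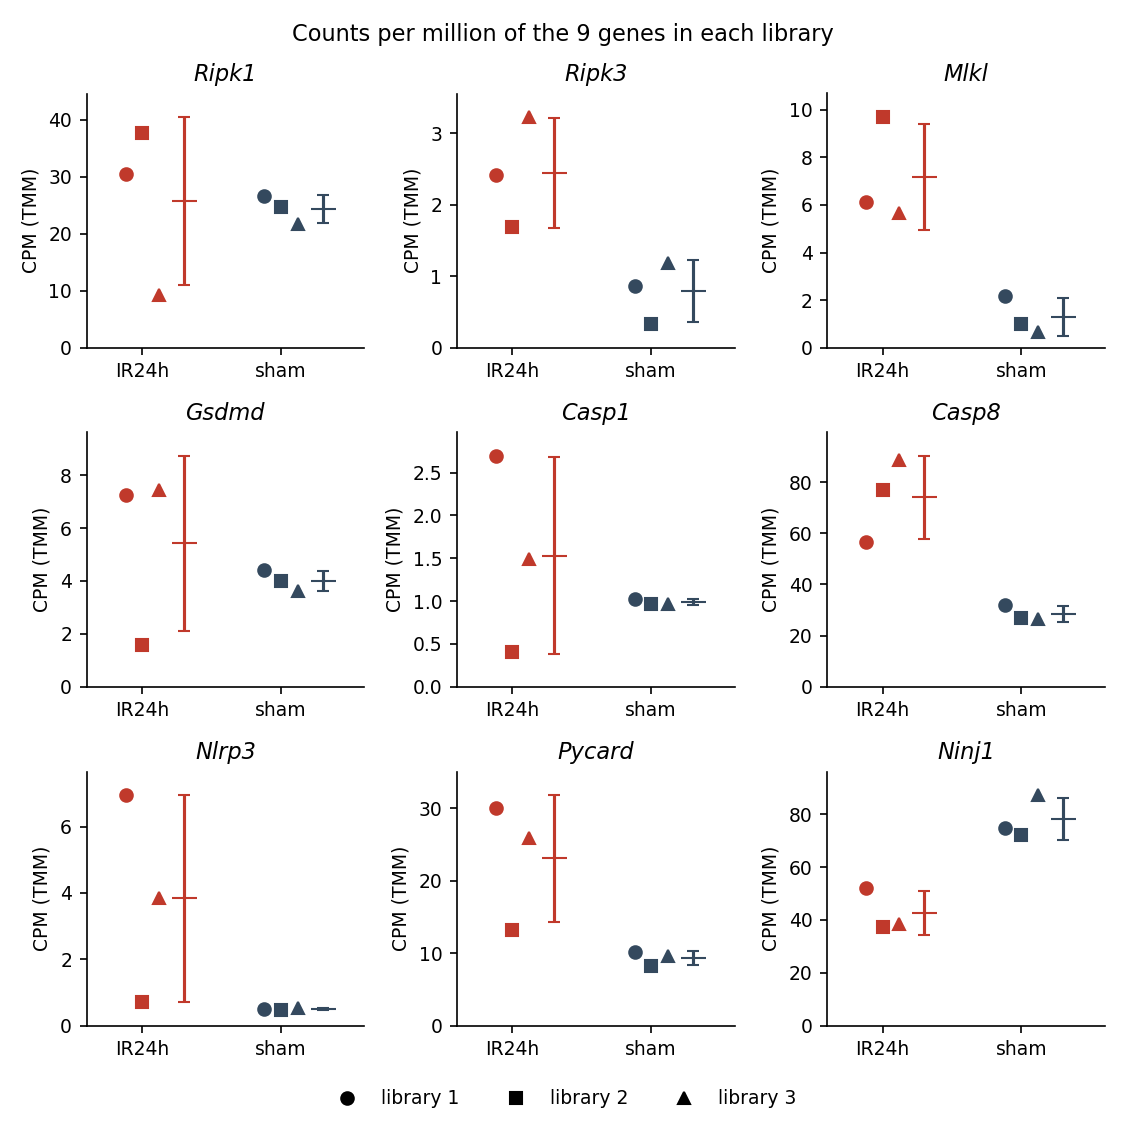
TMM-scaled CPM of the 9 genes, 1 panel a gene with its own axis; points are single libraries, with the shape giving the replicate number, IR24h stands left of sham, and the lines give the group mean ± SD. IR24h lies above sham without overlap for Ripk3, Mlkl, Casp8, Nlrp3 and Pycard and below it for Ninj1, and IR24h 2 is the lowest IR24h library for Ripk3, Gsdmd, Casp1, Nlrp3, Pycard and Ninj1.

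Nlrp3, the inflammasome sensor (chromosome 11, 59541568 to 59566956, plus strand), had 6.96, 0.716 and 3.85 CPM in IR24h 1, 2 and 3, against 0.514, 0.481 and 0.539 CPM in sham 1, 2 and 3. IR24h 1 and 3 were far above sham, whereas IR24h 2 was only just above the highest sham library, at 14 counts against 9, 10 and 10 in the sham libraries. Nlrp3 averaged 3.84 ± 3.12 CPM in IR24h and 0.511 ± 0.0294 CPM in sham, and its log2 fold change of 2.85 ± 0.79 narrowly passed the test (adjusted p = 0.0488, edgeR; exact permutation p = 0.1), 7.22-fold. It passed the filter on low counts, 0.66 CPM in at least 3 libraries, through the IR24h libraries alone. The change was 3.36 without IR24h 2 (adjusted p = 0.00121) and 0.49 with IR24h 2 as the sole IR24h library (adjusted p = 0.545). The call was lost without IR24h 1 (2.10, adjusted p = 0.129), without IR24h 3 (adjusted p = 0.105) and after dropping sham 1, 2 or 3 (adjusted p = 0.155, 0.167 or 0.152).

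Pycard, which encodes the adaptor ASC (chromosome 7, 127989708 to 127993867, minus strand), had 30.1, 13.2 and 26.0 CPM in IR24h 1, 2 and 3, against 10.2, 8.27 and 9.66 CPM in sham 1, 2 and 3. IR24h 2 was again nearest to sham, but still above all 3 of its libraries. It averaged 23.1 ± 8.79 CPM in IR24h and 9.36 ± 0.980 CPM in sham, a log2 fold change of 1.30 ± 0.35 (adjusted p = 0.0450, edgeR; exact permutation p = 0.1), or 2.46-fold. Without IR24h 2 it was 1.57 (adjusted p = 0.00138), and with that library alone 0.51 (adjusted p = 0.105). The call was lost without IR24h 1 (adjusted p = 0.105), IR24h 3 (adjusted p = 0.102), sham 1 (adjusted p = 0.146), sham 2 (adjusted p = 0.180) or sham 3 (adjusted p = 0.144). On the opposite strand, exons of Gm45205 cover 12.8% of its exon bases, and 11.7% of its 50-base stretches also occur in Gm45205 or Mvp. Mvp, which encodes the major vault protein, rose by 2.26 ± 0.28 on the log2 scale (adjusted p = 0.00378, edgeR), and its part in the Pycard value was not tested.

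Casp1, the inflammasome protease (chromosome 9, 5298517 to 5307265, plus strand), had 2.70, 0.409 and 1.49 CPM in IR24h 1, 2 and 3, against 1.03, 0.962 and 0.971 CPM in sham 1, 2 and 3. IR24h 1 and 3 were above every sham library and IR24h 2 was below every one, on 19, 8 and 17 counts in IR24h and 18, 20 and 18 counts in sham. The log2 fold change was 0.55 ± 0.67 (adjusted p = 0.592, edgeR; exact permutation p = 0.7). It was 1.04 without IR24h 2 (adjusted p = 0.0846), -1.24 with IR24h 2 alone (adjusted p = 0.143) and -0.12 without IR24h 1 (adjusted p = 0.918). The IR24h counts and the sham counts of this gene imply different gene models, of 1497 bases in IR24h, which is the summed exon length in GENCODE M21, and of 5969 bases in sham. With the implied length as an offset in the fit, chosen after seeing the data, the log2 fold change was 2.54 ± 0.69 (adjusted p = 0.0406), in a setting where 19.2% of all genes were called. That offset takes reads to be spread evenly over the gene model, so the Casp1 comparison between the groups depends on which counting holds.

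Gsdmd, the pore-forming substrate of caspase-1 (chromosome 15, 75862327 to 75867408, plus strand), had 7.24, 1.58 and 7.43 CPM in IR24h 1, 2 and 3, against 4.40, 3.99 and 3.61 CPM in sham 1, 2 and 3. Its libraries were ordered as for Casp1: IR24h 1 and 3 were above all of sham and IR24h 2 below all of it. The log2 fold change was 0.42 ± 0.56 (adjusted p = 0.634, edgeR; exact permutation p = 1). It was 0.87 ± 0.25 without IR24h 2 (adjusted p = 0.0257) and -1.32 with IR24h 2 alone. The latter fit has a single IR24h library, and all of these fits compare counts that imply different gene models in IR24h and sham. In FPKM, which also divides by totals with mitochondrial counts, IR24h 2 stood at 1.09, within the sham range of 0.906 to 1.18. The implied gene length was 1776 bases in IR24h and 4222 bases in sham, against 2377 exon bases in GENCODE M21, and the length offset gave 1.66 ± 0.57 (adjusted p = 0.0798).

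Ninj1, which drives membrane rupture (chromosome 13, 49187485 to 49196244, plus strand), was the one gene of the 9 that was lower in every IR24h library, with 52.1, 37.4 and 38.5 CPM in IR24h 1, 2 and 3, against 74.9, 72.3 and 87.4 CPM in sham 1, 2 and 3. The gap between the groups was wider than the range within either. It averaged 42.7 ± 8.23 CPM in IR24h and 78.2 ± 8.12 CPM in sham, and the log2 fold change of -0.88 ± 0.25 missed the threshold (adjusted p = 0.0522, edgeR; exact permutation p = 0.1). It passed with DESeq2 (adjusted p = 0.00997), limma-voom (adjusted p = 0.0441) and the length offset (adjusted p = 0.0472), without IR24h 1 (-1.05, adjusted p = 0.0418), without IR24h 2 (-0.80, adjusted p = 0.0188) and with IR24h 2 alone (-1.05, adjusted p = 0.00955). Its value stayed below 0 in all 16 alternatives run, between -1.39 and -0.76.

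**Figure D2:**
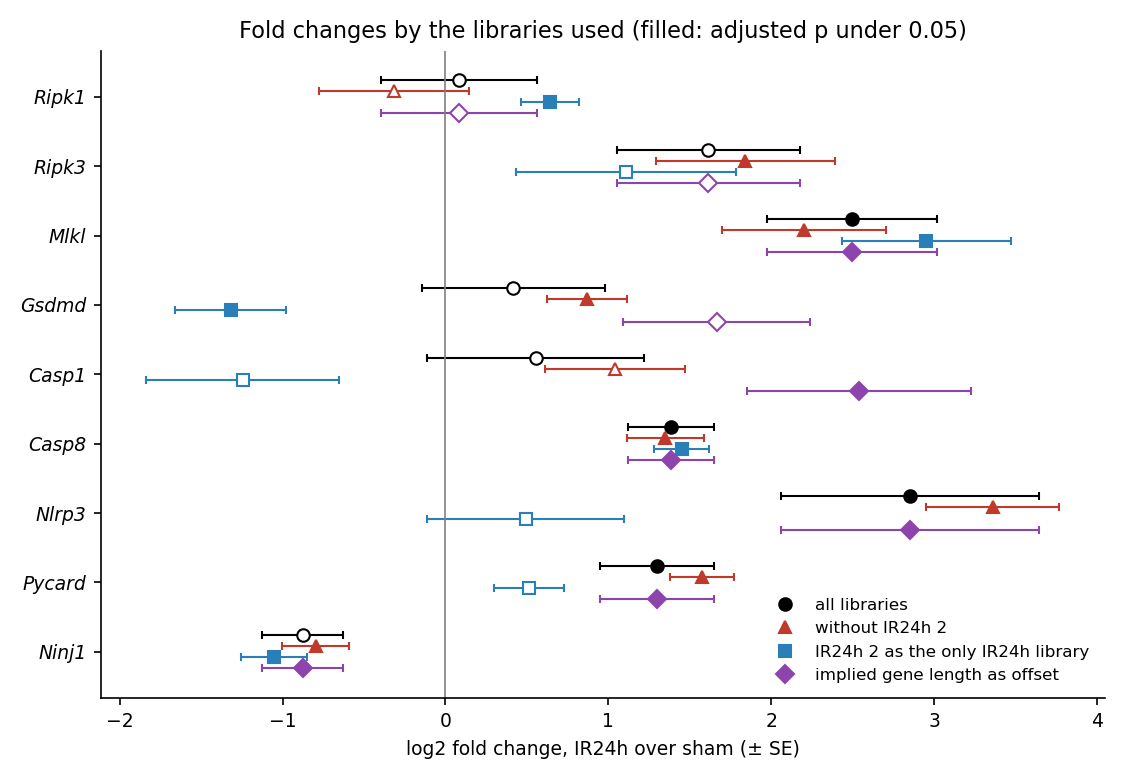
Log2 fold change of IR24h over sham for the 9 genes with all libraries, without IR24h 2, with IR24h 2 as the only IR24h library and with the implied gene length as offset; bars are ± SE of edgeR's quasi-likelihood fit and filled points have an adjusted p under 0.05. Mlkl and Casp8 are filled in all 4 fits, whereas over the 4 fits Nlrp3 moves between 3.36 and 0.49 and Gsdmd between 1.66 and -1.32.

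IR24h 2 stood on the same side of the sham mean as IR24h 1 and 3 for 6 of the 9 genes, and on the other side from both for Casp1 and Gsdmd. The counts of Casp1 and Gsdmd imply different gene models in IR24h and sham, so their sides depend on the counting. Mlkl stood 2.41, 3.07 and 2.30 log2 units above the sham mean in IR24h 1, 2 and 3, Casp8 0.999, 1.44 and 1.65, and Ninj1 -0.58, -1.06 and -1.02. Nlrp3 stood 3.69, 0.46 and 2.84 units from the sham mean, Pycard 1.69, 0.50 and 1.47, Casp1 1.42, -1.21 and 0.58, and Gsdmd 0.86, -1.31 and 0.89. Ripk3 stood 1.73, 1.22 and 2.15 units above the sham mean, and Ripk1 0.33, 0.63 and -1.40. Of the 3 IR24h libraries, IR24h 2 was lowest for 6 of the 9 genes, against 40.3% of all genes, and highest for 2, Mlkl and Ripk1, against 41.3%. With IR24h 2 left out, 7 of the 9 genes were called, 6 higher (Ripk3, Mlkl, Casp8, Nlrp3, Pycard, Gsdmd) and Ninj1 lower, against 48.3% of all genes (23.9% higher and 24.5% lower). The fit with IR24h 2 as the sole IR24h library assumes that this library varies like sham. It gave log2 fold changes of 2.95 for Mlkl, 1.45 for Casp8, 1.11 for Ripk3, 0.64 for Ripk1, 0.51 for Pycard and 0.49 for Nlrp3. Those of Ninj1, Casp1 and Gsdmd were -1.05, -1.24 and -1.32. The difference between IR24h libraries has no replicate and no test.

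Markers of other cells moved in the same libraries. The summed CPM of 6 markers common to leukocytes was 83.1, 26.8 and 102 in IR24h 1, 2 and 3, against 34.7 to 47.2 in sham. IR24h 2 thus lay below sham there. In CPM it also did for Casp1 and Gsdmd, whose counts imply different gene models in IR24h and sham. In FPKM, Casp1 stood at 0.334 in IR24h 2, against 0.172 to 0.195 in sham. Gsdmd stood at 1.09 FPKM in IR24h 2, against 0.906 to 1.18 in sham. None of the 6 leukocyte markers was called by edgeR, DESeq2 or limma-voom, and 0 had an unadjusted p under 0.05. Without IR24h 2, the fit in which 7 of the 9 genes were called, 4 of the 6 leukocyte markers were called higher. That fit called 48.3% of all genes, 23.9% higher and 24.5% lower. The sum of 7 endothelial markers was 312, 79.6 and 279 in IR24h 1, 2 and 3, against 235 to 279 in sham. Of them 1 was called, Kdr, lower, against 7.62% of all genes called lower. In IR24h 2 the endothelial sum stood at -1.68 log2 units from the sham mean. Without IR24h 2, 2 of the 7 endothelial markers were called higher and 1 lower, against 23.9% and 24.5% of all genes. The 18 macrophage and monocyte markers summed to 241, 157 and 360 CPM in IR24h, against 113 to 126 CPM in sham. Of 17 tested, 5 were called higher, against 8.65% of all genes, and 12 were not called. Those called were led by Itgam (4.12), Msr1 (3.83) and Cd14 (3.07 on the log2 scale), with a median of 0.49 over the 17. Adgre1, a macrophage marker named after its value was seen, had a log2 fold change of -1.51 (adjusted p = 0.241, edgeR), and -3.74 without IR24h 2 (adjusted p = 0.000815). Of the 17 macrophage and monocyte markers tested without IR24h 2, 7 were called higher and 1, Adgre1, lower, against 23.9% and 24.5% of all genes. Of the 12 neutrophil markers, 4 were tested and S100a9, S100a8 and Csf3r were called higher, and the list summed to 18.2, 7.82 and 19.8 CPM in IR24h, against 1.67 to 2.40 CPM in sham. The neutrophil markers Ly6g, Mpo, Elane and Camp were at 0 counts in all 6 libraries. A neutrophil marker under the filter's 0.66 CPM in every sham library could be tested only through the IR24h libraries. The share called higher among the 4 tested is therefore not read as a result. Of 12 lymphocyte markers, 1 was tested and not called, with 0 at an unadjusted p under 0.05 and 0 called by DESeq2 or limma-voom. The list summed to 0.142, 0.920 and 9.70 CPM in IR24h, against 3.77 to 5.38 CPM in sham. The part of these cells in the values of the 9 genes was not tested.

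Markers of the nephron described the cortex itself. Over all genes tested, edgeR called 7.62% lower. Proximal tubule markers, with 6 of 10 called lower, summed to 11997, 7949 and 15648 CPM in IR24h 1, 2 and 3, against 22089 to 26961 CPM in sham. Those called were led by Slc34a1 (-4.25), Slc5a12 (-3.73) and Miox (-3.66 on the log2 scale). In the distal segments, 2 of 8 markers of the thick ascending limb and distal tubule (Pvalb -3.64 and Calb1 -2.55) and 2 of 8 of the collecting duct (Slc26a4 -2.38 and Aqp3 -1.87) were called lower. The other 6 of each list were not called, and both medians were -0.73. The thick ascending limb and distal tubule list summed to 3380, 2389 and 5083 CPM in IR24h 1, 2 and 3, against 3444 to 4052 CPM in sham. For the collecting duct the sums were 384, 237 and 604 CPM in IR24h, against 567 to 646 CPM in sham. None of 5 podocyte markers was called by edgeR, with 3 at an unadjusted p under 0.05, 1 called by DESeq2 and 0 by limma-voom. The part of these shifts in the 9 genes was not tested.

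**Figure D3:**
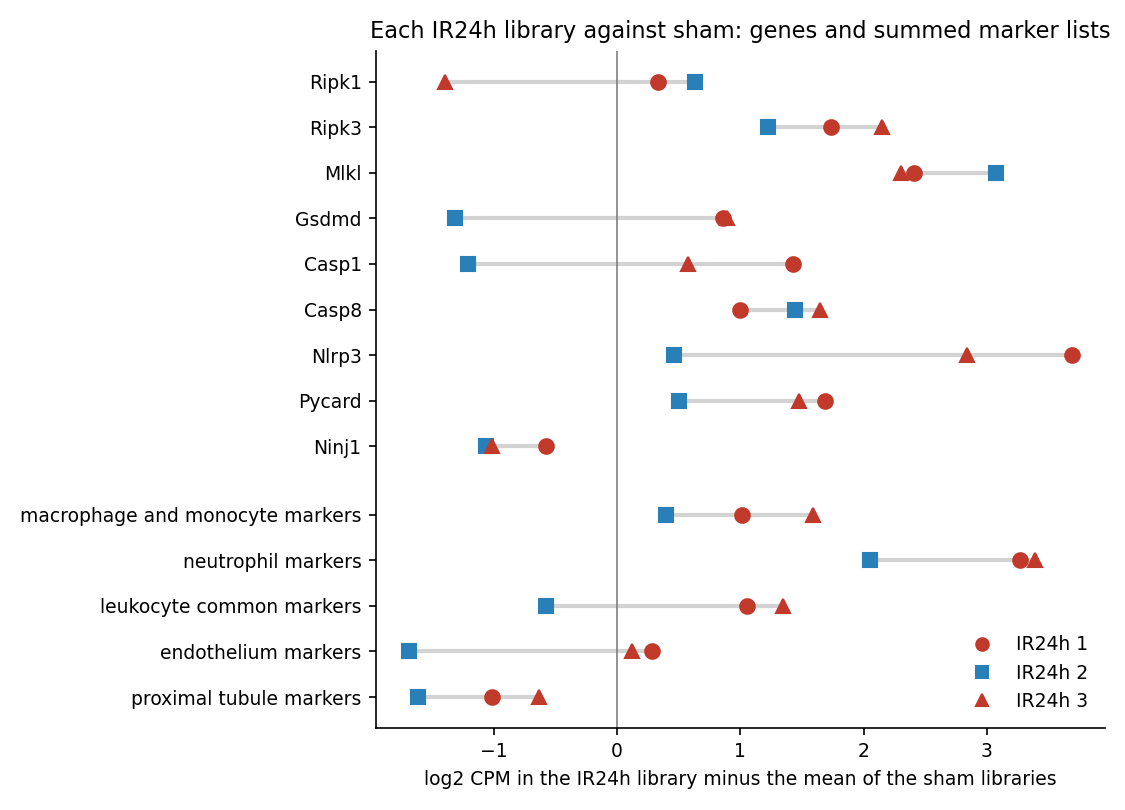
Difference of each IR24h library from the sham mean, in log2 CPM, for the 9 genes and for the summed CPM of 5 marker lists; each point is 1 library. IR24h 2 lies below the sham mean for Gsdmd (-1.31), Casp1 (-1.21), the leukocyte markers (-0.58) and the endothelial markers (-1.68), while IR24h 1 and 3 lie above it. The counts of Gsdmd and Casp1 imply different gene models in IR24h and sham, so their places against sham depend on the counting.

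Levels per gene length were read from the authors' FPKM (fragments per length of gene and per total of the library), which alone allow genes to be compared with each other. In sham, Ninj1 was the highest of the 9 at 40.4 ± 2.71 FPKM, then Casp8 at 8.47 ± 1.14 FPKM. They were followed by Ripk1 at 2.55 ± 0.342, Pycard at 2.44 ± 0.261, Gsdmd at 1.05 ± 0.137 and Mlkl at 0.416 ± 0.268 FPKM. The lowest were Casp1 at 0.183 ± 0.0114, Ripk3 at 0.169 ± 0.0873 and Nlrp3 at 0.110 ± 0.00411 FPKM (SD, n = 3). The ranges of the neighbours Ripk1 and Pycard overlapped, as did those of Casp1 and Ripk3 and of Ripk3 and Nlrp3, so these pairs had no order beyond their spread. In IR24h, Casp8 averaged 18.1 ± 8.76 FPKM and Ninj1 16.7 ± 4.17 FPKM, with overlapping ranges, and Pycard followed at 4.33 ± 0.820 FPKM. Then came Gsdmd at 2.31 ± 1.26, Ripk1 at 2.23 ± 1.89, Mlkl at 1.95 ± 1.33, Casp1 at 0.724 ± 0.345, Nlrp3 at 0.517 ± 0.305 and Ripk3 at 0.401 ± 0.143 FPKM, where from Gsdmd down each overlapped with the next. Ripk1 also overlapped with Pycard, standing above it in IR24h 2 at 4.35 against 3.82 FPKM. The sham values of Casp1 and Gsdmd were divided by the longer gene model, and FPKM also divides by totals that include the mitochondrial counts.

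A ratio of a pair of genes within 1 library is free of library scaling, and 2 such ratios were formed after the values had been seen, so they carry no test. Casp8 over Ninj1, the restraining protease over the rupture protein, was 0.625, 1.18 and 1.33 in FPKM in IR24h 1, 2 and 3, against 0.246, 0.215 and 0.173 in sham 1, 2 and 3. Every IR24h library was above every sham library, and Casp8 exceeded Ninj1 in IR24h 2 and 3 alone. Casp8 over Ripk1 was 5.28, 5.82 and 27.5 in IR24h, against 3.42, 3.11 and 3.45 in sham, with IR24h 3 far above the rest.

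**Figure D4:**
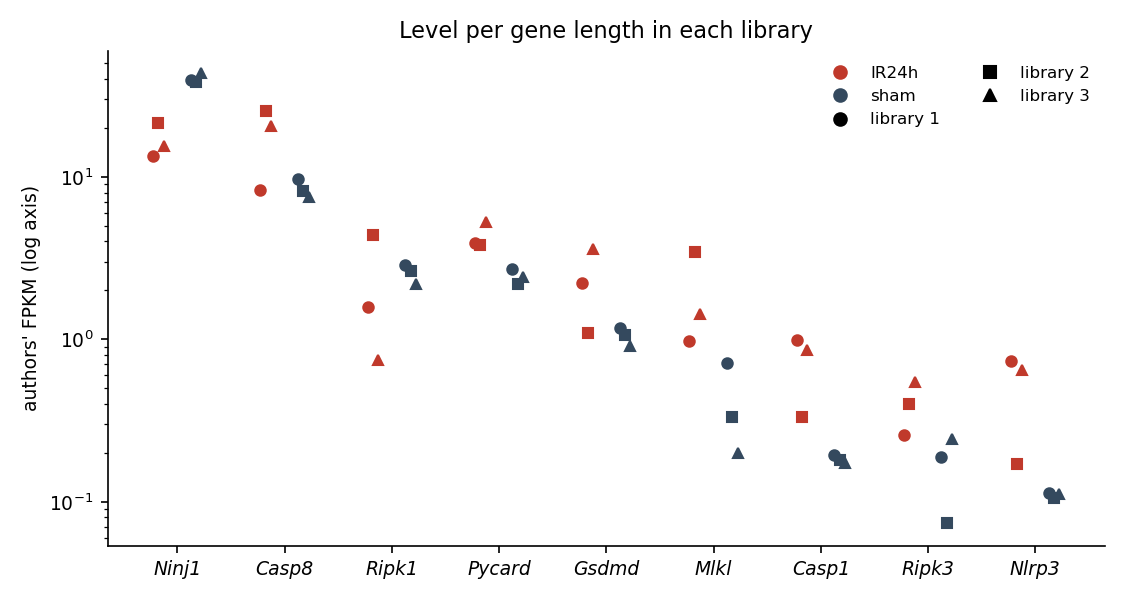
The authors' FPKM of the 9 genes on a log axis, IR24h left of sham for each gene; points are single libraries, with the shape giving the replicate number. Ninj1 and Casp8 lie above the other 7 in both groups, with Casp8 above Ninj1 in IR24h 2 and 3.

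The 2 genes with the most similar pattern to each of the 9 over the 6 libraries, by the root mean square difference of log2 CPM centred per gene, are given as a description. They were Zwilch (0.253) and Zfp993 (0.283) for Mlkl, Sept8 (0.0934) and Mboat1 (0.105) for Casp8, Msantd3 (0.197) and Rpp38 (0.203) for Ripk3, and Hnrnpr (0.114) and Taf4 (0.115) for Ripk1. For the inflammasome they were Stap2 (0.110) and Bgn (0.151) for Nlrp3, Zfp711 (0.0653) and Blvrb (0.0753) for Pycard, and Fam189b (0.135) and Lmo2 (0.143) for Casp1. For the membrane proteins they were Pecam1 (0.117) and Ccdc39 (0.124) for Gsdmd and A4gnt (0.0508) and Pex16 (0.0530) for Ninj1. Pecam1 encodes an adhesion protein of endothelium and leukocytes. Among the 36 pairs of the 9 genes themselves, the most alike was Gsdmd with Casp1, at 0.269, followed by Casp8 with Pycard at 0.481. Gsdmd and Casp1 are also the genes whose implied length differed between the groups. Genes of similar pattern were scarce for Mlkl, with 0 within a difference of 0.2, and common for Ninj1, with 133.

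The 4 lists of partner genes set the 9 in their pathways. Over all genes, edgeR called 16.3%, DESeq2 27.8% and limma-voom 16.2%, and 34.1% had an unadjusted p under 0.05 by edgeR. Of 26 necroptosis partners (receptors, adaptors, ubiquitin ligases and kinases), 25 were tested, and 2 rose and 0 fell, with a median log2 fold change of -0.01 against 0.05 over all genes, and with 5 at an unadjusted p under 0.05, 3 called by DESeq2 and 3 by limma-voom. Both that rose encode inhibitor-of-apoptosis ubiquitin ligases, which ubiquitinate RIPK1. Birc3 averaged 36.6 ± 1.47 CPM in IR24h and 6.31 ± 0.295 CPM in sham (log2 fold change 2.53 ± 0.23, adjusted p = 0.00125, edgeR), called in every leave-one-out fit. Birc2 averaged 49.9 ± 9.40 CPM in IR24h and 22.7 ± 2.85 CPM in sham (1.14 ± 0.26, adjusted p = 0.0251), and lost its call without IR24h 1 (adjusted p = 0.0509) or any of sham 1 to 3 in turn (adjusted p = 0.0982, 0.132 or 0.122). Tnf, the ligand that starts the pathway, did not pass the filter, and had 55.1, 0.409 and 13.9 CPM in IR24h 1, 2 and 3, against 0.171, 0.144 and 0.162 CPM in sham. Without IR24h 2, 6 of 26 were higher and 5 lower, in a fit that called 23.9% of all genes higher and 24.5% lower.

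Of 19 inflammasome sensors and cofactors, 14 were tested and 0 were called by edgeR in either direction, with 0 at an unadjusted p under 0.05 and 0 called by DESeq2 or limma-voom. Their median log2 fold change was -0.16, and Nlrp12 was at 0 counts in all libraries. Without IR24h 2, 4 of 14 were higher and 1 lower, against 23.9% and 24.5% of all genes. Nlrp3 and Pycard, which rose, are not among these 19.

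Of 26 gasdermins, caspases and interleukin-1 family genes, 14 were tested, 1 rose and 0 fell, with a median of 0.37, 7 at an unadjusted p under 0.05, 7 called by DESeq2 and 1 by limma-voom. Il1rn, the antagonist of the interleukin-1 receptor, averaged 22.3 ± 21.7 CPM in IR24h and 0.0861 ± 0.0761 CPM in sham (7.86 ± 1.06, adjusted p = 0.00473, edgeR), and its call held in every leave-one-out fit. Its sham libraries held 2, 3 and 0 counts, so the size of that fold change rests on few counts. Il1rn thus passed the filter on low counts through the IR24h libraries alone. Casp4, the protease that cleaves gasdermin D in the non-canonical route, had a log2 fold change of 1.71 ± 0.57 (adjusted p = 0.0795), and Il1b, the cytokine matured by caspase-1, one of 2.29 ± 0.68 (adjusted p = 0.0589). Gsdme, a gasdermin cleaved by caspase-3, had -1.40 ± 0.47 (adjusted p = 0.0810), and Il18, the other caspase-1 cytokine, -0.52 ± 0.43 (adjusted p = 0.435). Gsdma2, Gsdma3, Gsdmc and Ninj2 were at 0 counts in all libraries. Without IR24h 2, 8 of 15 were higher and 4 lower, against 23.9% and 24.5% of all genes.

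Of 17 genes of the ESCRT machinery, which sheds damaged membrane and delays lysis by MLKL or gasdermin D, all were tested, 1 rose and 1 fell, with a median of -0.28. At an unadjusted p under 0.05 there were 4, DESeq2 called 2 and limma-voom 1. Chmp2a averaged 121 ± 36.6 CPM in IR24h and 55.9 ± 7.86 CPM in sham (1.11 ± 0.31, adjusted p = 0.0469, edgeR). Its call was lost without IR24h 1 (adjusted p = 0.104), IR24h 3 (adjusted p = 0.102) or any 1 of sham 1 to 3 (adjusted p = 0.190, 0.190 or 0.124). Chmp6 averaged 39.0 ± 4.28 CPM in IR24h and 78.8 ± 11.3 CPM in sham (-1.01 ± 0.24, adjusted p = 0.0289). The Chmp6 call was lost without IR24h 1 (adjusted p = 0.0623), IR24h 3 (adjusted p = 0.0631) or any 1 of sham 1 to 3 (adjusted p = 0.116, 0.109 or 0.151). Without IR24h 2, 2 of 17 were higher and 6 lower, against 23.9% and 24.5% of all genes.

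**Figure D5:**
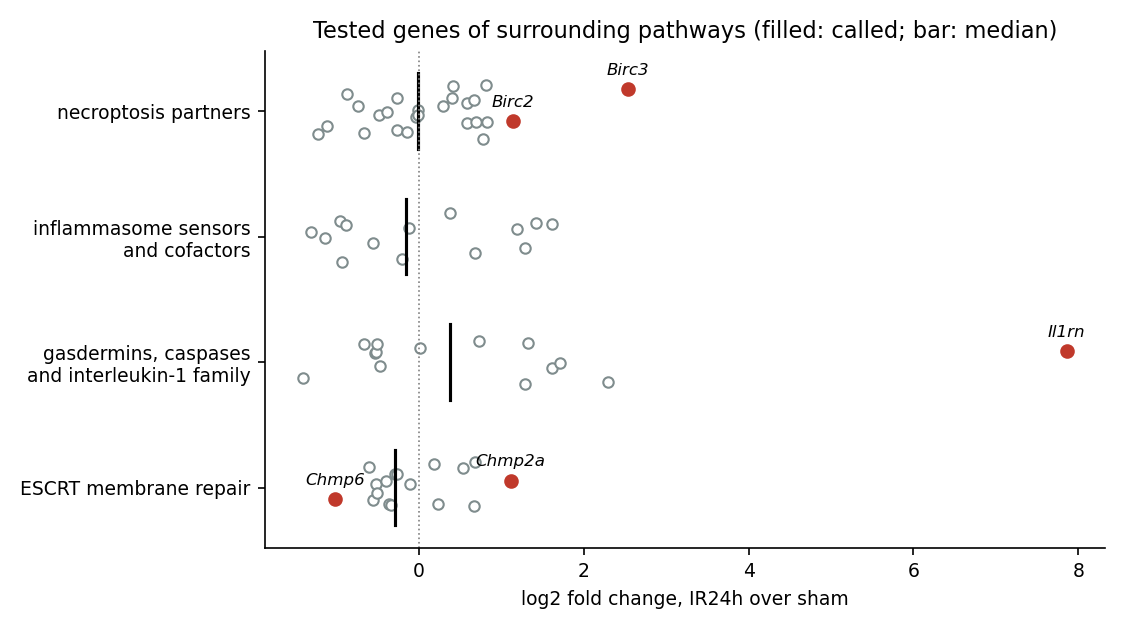
Log2 fold change of IR24h over sham for the tested genes of 4 partner lists; filled points are genes called at an adjusted p under 0.05, open points the others, and vertical bars list medians. The filled points are Birc2, Birc3, Il1rn and Chmp2a on the higher side and Chmp6 on the lower.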

How the data were processed

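Per the labels' protocols, an AMBION kit gave the total RNA and a TruSeq guide the library steps. CASAVA 1.8 and TopHat2 2.0.6 are the tools named per the submitters' processing notes, which name GRCh38 beside mm10, although the identifiers are mouse. Per the file headers, the authors deposited whole-number raw counts per gene and FPKM values, which divide a count by the length of the gene and the total of the library. The strandedness, counter and annotation were not stated in the sources used here. Of 22040 genes listed, 83 had no sham values and were left out. Coordinates are from GENCODE M21 (GRCm38).

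Counts were tested with edgeR 4.0.16 (R 4.3.3), a quasi-likelihood test after TMM scaling, with genes kept at 0.66 CPM in at least 3 libraries (13609 genes) and Benjamini-Hochberg adjustment over all of them. All 9 genes passed this filter, Nlrp3 through the IR24h libraries alone. Standard errors come from the F statistic. DESeq2 1.42.0 and limma-voom (limma 3.58.1) were alternatives. The fit was tested on simulated data. The implied length was taken from count and FPKM where a gene had at least 5 counts, and called different beyond 0.01 log2 units.

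The 9 genes were all named; of each pathway list, called genes (up to 6) and Casp4, Gsdme, Il1b and Il18; of each marker list up to 3 called genes; and the 2 genes most alike to each of the 9. The ratios of gene pairs, Tnf, Nlrp12, Adgre1 and genes that overlap the 9 or are at 0 counts fall outside this rule and were chosen after their values were seen. The genes and lists were chosen with earlier results of these data known. A gene of the list of gasdermins, caspases and the interleukin-1 family is not reported here and was taken out of that list's counts and median.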

Additional observations from a re-analysis of the deposited data

How the results depend on the processing

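Over the 9 genes and 16 alternatives, the log2 fold change kept its direction and its side of the threshold in 96 of 144 values, kept its direction but lost the call in 26, gained a call in 11 and reversed in 11. With 1 library left out, Ripk1 ranged between -0.32 and 0.49, Casp1 between -0.12 and 1.04 and Gsdmd between 0.09 and 0.87. Direction held in all 16 for Ripk3, Mlkl, Casp8, Nlrp3, Pycard and Ninj1. Ripk1 reversed with library size only (-0.31), limma-voom (-0.13), the replicate block (-0.12), without IR24h 1 (-0.05) and without IR24h 2 (-0.32). Gsdmd reversed with library size only (-0.23), limma-voom (-0.038) and IR24h 2 as the sole IR24h library (-1.32), and Casp1 with library size only (-0.14), without IR24h 1 (-0.12) and with IR24h 2 alone (-1.24). Library size only moved the median of all genes to -0.39, against 0.05 with TMM, and Ripk1, Gsdmd and Casp1 stayed above that median. It called 0 of the 9 genes by edgeR, with 3 at an unadjusted p under 0.05, and 1009 genes in all (7.41%). Over all genes the main count of 2214 became 3768 with DESeq2, 5439 with IR24h 2 as the sole IR24h library and between 458 (without sham 2) and 6679 (without IR24h 2) with 1 library left out. Of the 9 genes, 4 in the main analysis, between 0 and 7 were called with 1 library left out: 0 without sham 2 or sham 3, with 5 and 6 at an unadjusted p under 0.05, and 7 without IR24h 2. Each leave-one-out fit holds fewer libraries, and the cause of these shifts was not tested. The length offset was chosen after seeing the data.

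Deviations of same-numbered libraries from their group means correlated at -0.10, 0.10 and 0.20. IR24h 3 correlated best with sham 3 (0.20), but IR24h 1 also with sham 3 (0.12) and IR24h 2 with sham 1 (0.16). Deviations from means of 3 libraries cannot settle whether the replicate numbers pair the libraries. With the replicate block 2 of the 9 genes were called, Mlkl and Casp8, and 1657 genes in all (12.2%). Depth limits Casp1, Ripk3 and Nlrp3, which had 8 to 49 counts in IR24h and 7 to 22 in sham.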
